A study of Mus musculus with 8 samples.

Results

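Genes induced by interferon and genes of antigen presentation were examined in cultured mouse spermatogonia, 43 genes in all. They were taken from the count table by their symbols, from a list drawn up with earlier results of these data known. They made up 43 of the 55421 genes of the table, and each symbol belonged to 1 identifier. All 43 passed the filter on low counts and were among the 20588 genes tested, with 82 to 33451 counts in a library. By role they were 15 antiviral effectors with the IFIT family, 2 genes of the ubiquitin-like modifier ISG15, 3 cytosolic RNA sensors, 4 transcription factors, 7 interferon-inducible GTPases, 6 antigen presentation genes and 6 other interferon-stimulated genes.

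Interferons are secreted proteins that warn cells of viral infection. Type I interferons signal through JAK kinases and act mainly on genes with the interferon-stimulated response element (ISRE), whereas interferon gamma acts mainly on genes with the gamma-activated site (GAS). The induced genes encode proteins that degrade or bind viral RNA, coat vacuoles of intracellular pathogens, and load peptides onto MHC class I molecules. Fibroblasts are classic responders to interferon, and most cells with a nucleus can respond.

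The samples were spermatogonial stem cell (SSC) cultures of C57BL/6XDBA/2 background, started from testes of 6-day-old pups and, per the study's methods, expanded on irradiated embryonic fibroblasts of outbred CF1 mice (MEF feeder cells). Cultures were labelled Stra8KO, for loss of the retinoic acid responsive regulator of meiotic entry, or Spo11KO, for loss of the enzyme that makes meiotic DNA breaks, and received vehicle (Veh) or NRRA, a nutrient restriction medium with retinoic acid, for 2 days. The cultures were grown with the supplement N2 and the factors bFGF and GDNF. Per the study's methods, NRRA medium is mostly a balanced salt solution with a small part of this growth medium, so the supplements were diluted in NRRA. Each group had 2 libraries. Wild-type cultures were not analysed here, so the genotypes are compared only with each other. Spo11 had 72 and 75 counts in the Veh libraries labelled Spo11KO and 32 and 31 counts in Stra8KO Veh, so gene counts did not check that label, and these samples are called the libraries or cultures labelled Spo11KO. Stra8 had 28 and 12 counts in the libraries labelled Spo11KO in Veh, 12604 and 16191 in those labelled Spo11KO after NRRA, 2 and 0 in Stra8KO Veh and 169 and 170 in Stra8KO NRRA.

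Library totals ran from 20960794 to 27038868 counts. The germ cell genes Ddx4 and Dazl had 1990 to 6868 and 5722 to 19008 counts in a library. The fibroblast gene Col1a1 had 51775 to 248659 counts, so defining markers of germ cells and of fibroblasts were both detected. In bulk samples like these, fewer cells of a type and less RNA per cell cannot be told apart. The study describes its sequencing replicates as biological, but no source used here says whether paired libraries stem from independently established lines, so p-values measure only the spread between these libraries. Levels are given as CPM, counts per 1000000 counts of a library after TMM scaling. A gene was called where edgeR's quasi-likelihood test gave a Benjamini-Hochberg adjusted p under 0.05 over all 20588 tested genes.

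Together the members held 0.328% and 0.329% of all counts in the libraries labelled Spo11KO in Veh and 0.551% and 0.587% in those labelled Spo11KO after NRRA. They held 0.583% and 0.599% of the counts in Stra8KO Veh, and 1.00% and 1.08% in Stra8KO NRRA. The share was thus higher after NRRA in both genotypes and higher in Stra8KO in both media, with no overlap within any of these 4 comparisons. Per kilobase of exon, B2m, the constant chain of MHC class I, stood highest in every group, at 597 ± 37 CPM per kb (SD, n = 2) in Veh cultures labelled Spo11KO and 1777 ± 26.1 CPM per kb in Stra8KO NRRA. Ifitm3, which blocks entry of enveloped viruses, came next in each group, at 261 ± 17 and 854 ± 31 CPM per kb in the same groups. The median member stood at 14.1 CPM per kb in Veh cultures labelled Spo11KO, 19.5 in NRRA cultures labelled Spo11KO, 19.1 in Stra8KO Veh and 31.6 in Stra8KO NRRA.

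**Figure D1:**
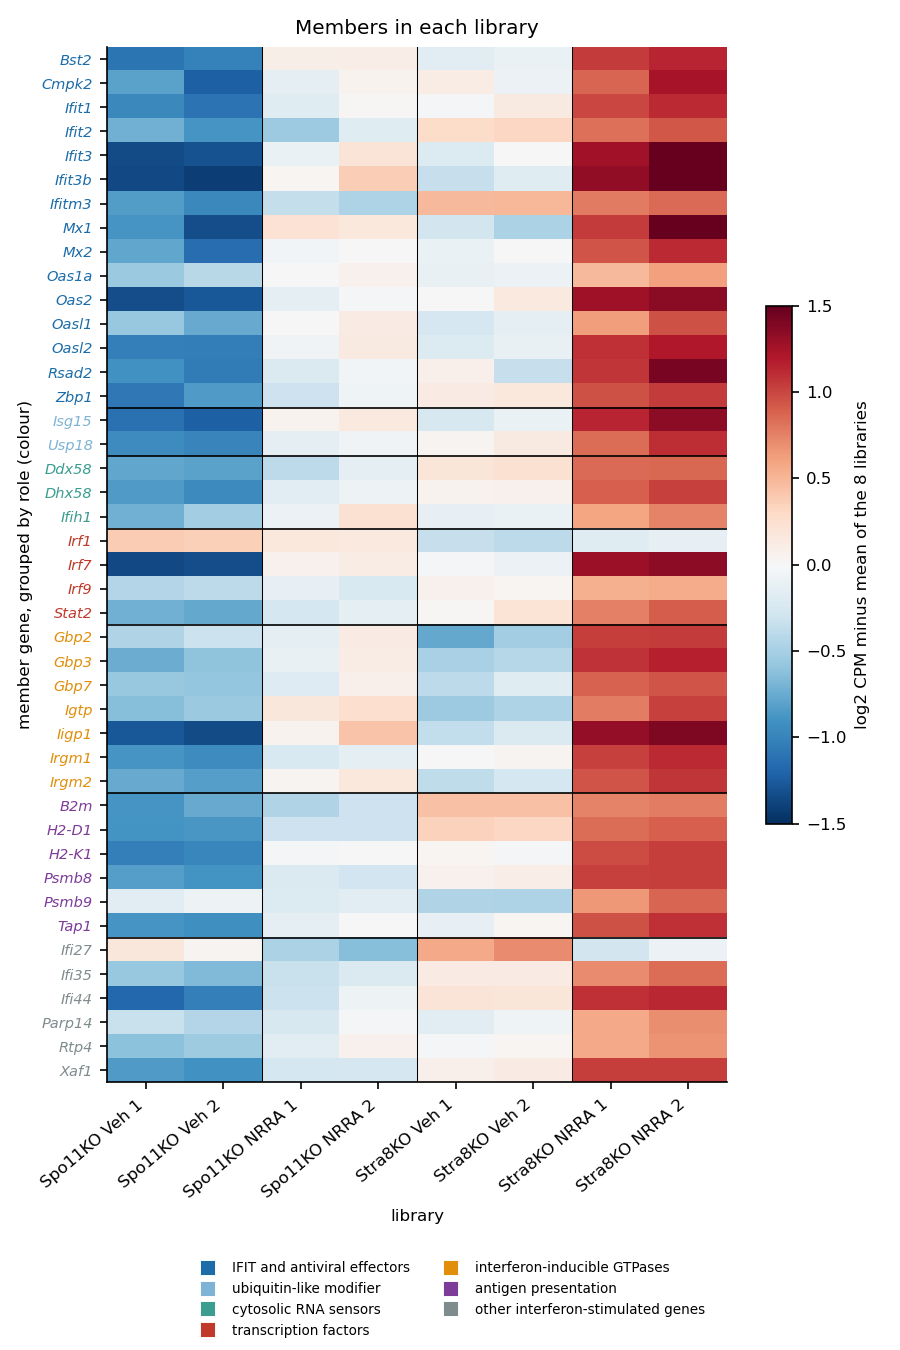
Level of each member (vertical axis, grouped by role, with names coloured by role) in each library (horizontal axis). Colour is log2 CPM minus the mean of that gene over the 8 libraries. The colours run from lowest in the Veh libraries labelled Spo11KO to highest in Stra8KO NRRA for the members other than Psmb9, Gbp2, Ifi27 and Irf1.

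To place the members on the genome and show the letters upstream of them, coordinates were taken from the GRCm38 annotation (GENCODE M21), a build that corresponds to the mm10 named by the submitters. Of the members, 42 were annotated as protein coding and Mx2 as a polymorphic pseudogene. Of the 43 members 18 lay within 100 kb of another member. The Ifit genes formed a row on chromosome 19, with Ifit2 at chr19:34550694-34576419, Ifit3 at chr19:34583531-34588731, Ifit3b at chr19:34607970-34613401 and Ifit1 at chr19:34640871-34650009. Gbp7, Gbp3 and Gbp2 lay side by side on chromosome 3, from 142530342 to 142638008. Psmb9 (chr17:34181987-34187764), Tap1 (chr17:34187553-34197225) and Psmb8 (chr17:34197721-34201454) were neighbours in the MHC of chromosome 17. Rsad2 and Cmpk2 were neighbours on chromosome 12, and Igtp (chr11:58199556-58207591) overlapped Irgm2 (chr11:58199618-58222782) on chromosome 11.

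Promoter windows of 250 bases before to 50 bases after the start site were found for 33 of the 43 members among the RefSeq windows (GRCm38.p6). The core of the ISRE was searched as GAAA, any 2 bases and GAAA, and that of the GAS as TTC, any 3 bases and GAA, on both strands. An ISRE core stood in a window of 18 of the 33 members (54.5%), against 1079 of 27025 genes with a window (3.99%). A GAS core stood in 10 of the 33 (30.3%), against 2582 of 27025 (9.55%). In Bst2 and Ifitm3 a core of each kind shared bases with the other. All 6 GTPases with a window held an ISRE core, 3 of them also a GAS core, and 7 of 11 antiviral effectors held an ISRE core. Of the 6 antigen presentation genes, B2m alone held an ISRE core and Psmb8 alone a GAS core, and the windows of Psmb9, Tap1, H2-K1 and H2-D1 held neither. A match is a description of letters and not of binding.

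The 160 bases directly before the RefSeq start site of 6 members are printed 5′ to 3′ in the direction of the gene, with ISRE and GAS cores on either strand in capitals. Isg15 and Ifit3 show genes that rose in both genotypes, Gbp7, Igtp and Irgm2 show GTPases whose rise differed between genotypes, and Irf1 shows the member with opposite changes. None of these stretches overlapped an annotated exon. That of Irgm2 lies inside the gene span given above, before a start site downstream of the first one annotated in GENCODE.
Isg15 (chr4:156200819-156200978, minus strand): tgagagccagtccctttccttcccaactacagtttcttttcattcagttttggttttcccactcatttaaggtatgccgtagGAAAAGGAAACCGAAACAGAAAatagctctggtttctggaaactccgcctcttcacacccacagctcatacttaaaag
Ifit3 (chr19:34583369-34583528, plus strand): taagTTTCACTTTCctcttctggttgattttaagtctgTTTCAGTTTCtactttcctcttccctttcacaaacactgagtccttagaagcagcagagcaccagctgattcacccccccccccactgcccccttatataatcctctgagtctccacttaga
Gbp7 (chr3:142530176-142530335, plus strand): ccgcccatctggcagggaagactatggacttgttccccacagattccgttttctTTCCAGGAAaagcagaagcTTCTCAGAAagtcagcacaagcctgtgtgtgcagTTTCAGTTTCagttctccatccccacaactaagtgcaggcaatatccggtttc
Igtp (chr11:58199396-58199555, plus strand): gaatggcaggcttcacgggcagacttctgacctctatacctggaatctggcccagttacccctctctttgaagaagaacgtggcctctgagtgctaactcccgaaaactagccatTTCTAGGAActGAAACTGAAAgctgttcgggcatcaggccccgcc
Irgm2 (chr11:58214817-58214976, plus strand): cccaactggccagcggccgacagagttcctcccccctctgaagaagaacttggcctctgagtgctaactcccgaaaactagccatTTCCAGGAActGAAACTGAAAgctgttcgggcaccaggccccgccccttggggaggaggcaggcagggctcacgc
Irf1 (chr11:53769854-53770013, plus strand): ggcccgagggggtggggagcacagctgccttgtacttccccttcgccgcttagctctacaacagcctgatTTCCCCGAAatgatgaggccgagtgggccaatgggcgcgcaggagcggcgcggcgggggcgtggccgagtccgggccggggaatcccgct
Isg15 carried 3 overlapping ISRE cores and Ifit3 carried 2 separate ones, read on the opposite strand. Igtp and Irgm2, from the same gene family, each had a GAS core followed at a gap of 2 bases by the ISRE core. Gbp7 had 2 GAS cores and 1 ISRE core. Irf1 had 1 GAS core and no ISRE core in this window.

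NRRA was compared with Veh within each genotype to see how the members moved when cultures were switched to NRRA medium. The study used this medium to induce meiotic entry, and reports that Stra8-deficient cultures did not turn on the meiotic gene program in it. In Stra8KO cultures 42 of the 43 members rose and 1, Ifi27, fell. The background was high, since 41.5% of all tested genes were called, 21.4% higher and 20.1% lower. NRRA and Veh libraries did not overlap for 43 members, where 35.9% of tested genes lay wholly higher and 33.5% wholly lower. The median of the members was 1.00 on the log2 scale (2.00-fold), beside 0.013 over all tested genes. At least 2-fold rises numbered 21, where 6.96% of all tested genes rose that far. In cultures labelled Spo11KO 40 members rose, Irf1 and Ifi27 fell, and Psmb9 was not called, where 50.3% of all tested genes were called, 24.7% higher and 25.5% lower. Libraries did not overlap for 42 members, against 36.5% of tested genes wholly higher and 35.4% wholly lower. There the median was 0.73 (1.66-fold), beside 0.013 over all tested genes, and 9 members rose at least 2-fold against 6.89% of tested genes. Those 9 genes, Bst2, Ifit3, Ifit3b, Iigp1, Irf7, Isg15, Mx1, Oas2 and Oasl2, also rose at least 2-fold in Stra8KO.

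Among the ubiquitin-like modifier genes, Isg15, which is attached to newly made proteins in infected cells, was measured at 63.5 and 59 CPM in the libraries labelled Spo11KO in Veh, 143 and 152 CPM in those labelled Spo11KO after NRRA, 117 and 129 CPM in Stra8KO Veh and 304 and 348 CPM in Stra8KO NRRA. Both NRRA groups lay above their Veh groups without overlap, and Stra8KO NRRA stood highest. Isg15 rose by 1.41 (log2, SE 0.06, edgeR adjusted p 5.32e-14) in Stra8KO and by 1.27 (log2, SE 0.064, edgeR adjusted p 9.48e-13) in cultures labelled Spo11KO. Usp18, the enzyme that removes ISG15 and dampens the type I receptor, rose by 0.89 and 0.87 (log2) in Stra8KO and cultures labelled Spo11KO, with edgeR adjusted p of 2.65e-10 and 1.89e-09.

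All 15 antiviral effectors rose in both genotypes, with medians of 1.09 in Stra8KO and 0.95 in cultures labelled Spo11KO (log2). Ifit3, a member of the family that binds viral RNA ends, was measured at 62.5 and 64.2 CPM in the libraries labelled Spo11KO in Veh, 148 and 182 CPM in those labelled Spo11KO after NRRA, 138 and 158 CPM in Stra8KO Veh and 378 and 447 CPM in Stra8KO NRRA. Each NRRA library exceeded both Veh libraries of its genotype. The rise of Ifit3 was 1.48 (log2, SE 0.15, edgeR adjusted p 0.00163) in Stra8KO and 1.38 (log2, SE 0.16, edgeR adjusted p 0.00223) in cultures labelled Spo11KO. Its neighbour Ifit3b rose by 1.71 and 1.596, the largest rise of any member in each genotype. Of the 100-base words of their transcripts, 31.7% of those of Ifit3 also occurred in Ifit3b and 27.4% of those of Ifit3b in Ifit3, so how reads were split between these copies is uncertain. Ifit1 rose by 1.00 and 0.96, and Ifit2 by 0.59 and 0.46, a second call that was lost without Veh replicate 2 labelled Spo11KO, at 0.37. Without NRRA replicate 2 labelled Spo11KO the second rise of Ifit2 was 0.23.

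The Mx GTPases, which trap viral nucleocapsids, and the Oas genes with the related Oasl genes followed the same direction. OAS enzymes activate the RNase that cleaves viral RNA. Mx1 rose by 1.68 (log2, SE 0.14, edgeR adjusted p 4.03e-10) in Stra8KO and by 1.27 (log2, SE 0.18, edgeR adjusted p 1.09e-06) in cultures labelled Spo11KO, from a low level of 3.57 to 7.42 CPM in the 4 Veh libraries. Mx2 rose by 1.09 and 0.92. Oas2 rose by 1.24 and 1.21, Oasl2 by 1.31 and 1.08, Oasl1 by 0.99 and 0.72, and Oas1a by 0.66 and 0.52, in Stra8KO and in cultures labelled Spo11KO. Oas1a shares 40.9% of its 100-base words with Oas1g, so its level is uncertain. Bst2, or tetherin, which holds budding virus at the cell surface, rose by 1.23 and 1.15.

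Rsad2 (viperin), which makes a chain-terminating nucleotide, and its neighbour Cmpk2, a nucleotide kinase, rose in both genotypes. Rsad2 was measured at 21.6 and 19.6 CPM in the libraries labelled Spo11KO in Veh, 34.9 and 39.4 CPM in those labelled Spo11KO after NRRA, 42.6 and 31.9 CPM in Stra8KO Veh and 85.1 and 109 CPM in Stra8KO NRRA. Its groups did not overlap within a genotype, but the Stra8KO Veh libraries differed by 0.42 (log2), the most of any member in that group. It rose by 1.37 (log2, SE 0.20, edgeR adjusted p 0.00543) in Stra8KO and by 0.85 (log2, SE 0.23, edgeR adjusted p 0.0371) in cultures labelled Spo11KO. The Spo11KO call was lost when any of the 4 libraries of that comparison was left out, at 0.74 to 0.93 (log2), and the Stra8KO call was lost when only the libraries compared were fitted, at 1.37 (edgeR adjusted p 0.0555). Cmpk2 rose by 1.05 and 0.95, and the second call was lost without NRRA replicate 2 labelled Spo11KO, at 0.83. Zbp1, a sensor of left-handed nucleic acid, rose by 0.86 and 0.78. Ifitm3 rose least among the effectors in Stra8KO, by 0.32 in Stra8KO and 0.49 in cultures labelled Spo11KO.

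The 3 RNA sensors rose in both genotypes, with medians of 0.78 in Stra8KO and 0.70 in cultures labelled Spo11KO (log2). Ddx58 (RIG-I) was measured at 70.7 and 69.1 CPM in the libraries labelled Spo11KO in Veh, 91.9 and 109.9 CPM in those labelled Spo11KO after NRRA, 137 and 142 CPM in Stra8KO Veh and 217 and 219.6 CPM in Stra8KO NRRA. NRRA libraries lay above the Veh libraries of their genotype, and it rose by 0.65 and 0.53 in Stra8KO and cultures labelled Spo11KO. Ifih1 (MDA5), which detects long double-stranded RNA, rose by 0.78 and 0.70, and Dhx58 (LGP2), which modulates both sensors, by 0.91 and 0.78.

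Among the transcription factors, Irf7, the amplifier of the type I response, moved most. It was measured at 74.3 and 75.6 CPM in the libraries labelled Spo11KO in Veh, 199 and 205 CPM in those labelled Spo11KO after NRRA, 186 and 179 CPM in Stra8KO Veh and 464 and 481 CPM in Stra8KO NRRA. The libraries of each group lay close together and no groups of 1 genotype overlapped. Irf7 rose by 1.37 (log2, SE 0.04, edgeR adjusted p 1.11e-28) in Stra8KO and by 1.43 (log2, SE 0.043, edgeR adjusted p 3.61e-28) in cultures labelled Spo11KO. Stat2 rose by 0.72 and 0.54, and Irf9, its partner, by 0.50 and 0.24. Irf1, the factor that interferon gamma induces through a GAS, was measured at 164 and 161 CPM in the libraries labelled Spo11KO in Veh, 141 and 139 CPM in those labelled Spo11KO after NRRA, 99.2 and 95.7 CPM in Stra8KO Veh and 111 and 116 CPM in Stra8KO NRRA. It was highest in the Veh libraries labelled Spo11KO and lowest in Stra8KO Veh. Irf1 rose by 0.22 (log2, SE 0.046, edgeR adjusted p 0.000146) in Stra8KO and fell by 0.21 (log2, SE 0.043, edgeR adjusted p 5.63e-05) in cultures labelled Spo11KO.

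The interferon-inducible GTPases act on vacuoles of intracellular bacteria and parasites. The 7 among the members had the largest median difference between genotypes of the 7 role groups. Their NRRA change was higher by a median of 0.59 (log2) in Stra8KO. All 7 rose at least 2-fold in Stra8KO, with a median of 1.41 (2.65-fold). All 7 rose in cultures labelled Spo11KO too, with a median of 0.73 (1.66-fold), and Iigp1 was the only one of them at 2-fold or more there. Outside the members Gbp4, Gbp5, Gbp6 and Gbp9 rose by 2.17, 2.19, 1.56 and 1.75 in cultures labelled Spo11KO. Ifi47 rose by 0.95 there, and Gbp8 was not called, at 0.57. Gbp2 was measured at 47 and 51.1 CPM in the libraries labelled Spo11KO in Veh, 58 and 69.9 CPM in those labelled Spo11KO after NRRA, 37.6 and 44.7 CPM in Stra8KO Veh and 132 and 133 CPM in Stra8KO NRRA. The Veh libraries labelled Spo11KO lay slightly above Stra8KO Veh, while Stra8KO NRRA lay far above the other 6 libraries. Gbp2 rose by 1.69 (log2, SE 0.084, edgeR adjusted p 5.54e-11) in Stra8KO and by 0.39 (log2, SE 0.084, edgeR adjusted p 0.00113) in cultures labelled Spo11KO. The second value was 0.22 without NRRA replicate 2 labelled Spo11KO. Gbp3 was measured at 43.8 and 48 CPM in the libraries labelled Spo11KO in Veh, 67.7 and 78.9 CPM in those labelled Spo11KO after NRRA, 52.4 and 54.5 CPM in Stra8KO Veh and 155 and 164 CPM in Stra8KO NRRA. Its 4 Veh libraries lay between 43.8 and 54.5 CPM and Stra8KO NRRA stood apart. It rose by 1.58 in Stra8KO and 0.68 in cultures labelled Spo11KO.

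Igtp, of the immunity-related GTPases, was measured at 33.8 and 35.8 CPM in the libraries labelled Spo11KO in Veh, 59.4 and 62.9 CPM in those labelled Spo11KO after NRRA, 36 and 38.4 CPM in Stra8KO Veh and 89.5 and 108 CPM in Stra8KO NRRA. The Veh groups lay close together, and each NRRA group lay above both. Igtp rose by 1.41 in Stra8KO and 0.82 in cultures labelled Spo11KO, Irgm2 by 1.33 and 0.89, and Irgm1, a regulator of the family, by 1.05 and 0.73. Gbp7 rose by 1.20 and 0.52, and Iigp1 by 1.65 and 1.56. Igtp shares 8.01% of its exon bases with Irgm2 on the same strand, and Gbp7 shares 11.3% of its exon bases with the predicted gene Gm43802, so reads in these stretches are uncertain.

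All 6 antigen presentation genes rose in Stra8KO and 5 of them in cultures labelled Spo11KO. B2m was measured at 491 and 536 CPM in the libraries labelled Spo11KO in Veh, 664 and 732 CPM in those labelled Spo11KO after NRRA, 1227 and 1229 CPM in Stra8KO Veh and 1512 and 1544 CPM in Stra8KO NRRA. No groups overlapped. Its rise was 0.32 in Stra8KO and 0.44 in cultures labelled Spo11KO. The MHC class I heavy chains differed in size of rise, H2-K1 by 1.00 and 0.99 and H2-D1 by 0.54 and 0.57. Tap1, which pumps peptides into the endoplasmic reticulum, rose by 1.07 and 0.84, and Psmb8, a catalytic subunit of the immunoproteasome, by 0.94 and 0.60. Psmb9, another such subunit, was measured at 15.4 and 16.3 CPM in the libraries labelled Spo11KO in Veh, 14.9 and 15.4 CPM in those labelled Spo11KO after NRRA, 12.6 and 12.5 CPM in Stra8KO Veh and 26.9 and 31.6 CPM in Stra8KO NRRA. Stra8KO NRRA lay above and Stra8KO Veh below all other libraries, and the groups labelled Spo11KO overlapped between media. Psmb9 rose by 1.22 (log2, SE 0.093, edgeR adjusted p 1.45e-14) in Stra8KO, and its change in cultures labelled Spo11KO was -0.064 (log2, SE 0.094, edgeR adjusted p 0.606).

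Of the 6 other interferon-stimulated genes, 5 rose in both genotypes and Ifi27 fell in both. Ifi27, which encodes a small mitochondrial membrane protein, was measured at 43 and 39.3 CPM in the libraries labelled Spo11KO in Veh, 27.6 and 24.7 CPM in those labelled Spo11KO after NRRA, 56.8 and 62.7 CPM in Stra8KO Veh and 31.6 and 36 CPM in Stra8KO NRRA. Every NRRA library lay below every Veh library. Ifi27 fell by 0.82 (log2, SE 0.071, edgeR adjusted p 7.66e-13) in Stra8KO and by 0.66 (log2, SE 0.074, edgeR adjusted p 5.17e-10) in cultures labelled Spo11KO. Ifi44 rose by 0.93 and 0.91, Xaf1, which promotes cell death, by 0.94 and 0.62, and Rtp4, a receptor transporter, by 0.62 and 0.54. Rtp4 shares 13.9% of its exon bases with the predicted gene Gm45338 on the same strand. Parp14, an ADP-ribosyltransferase, rose by 0.75 and 0.26, and the second call was lost without Veh replicate 2 labelled Spo11KO, at 0.20, or NRRA replicate 2 labelled Spo11KO, at 0.12. Ifi35 rose by 0.65 and 0.35. Genes on the opposite strand overlap 16.8% of the exon bases of Ifi35 and 14.7% of those of Psmb8, and whether counting used strand was not given.

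**Figure D2:**
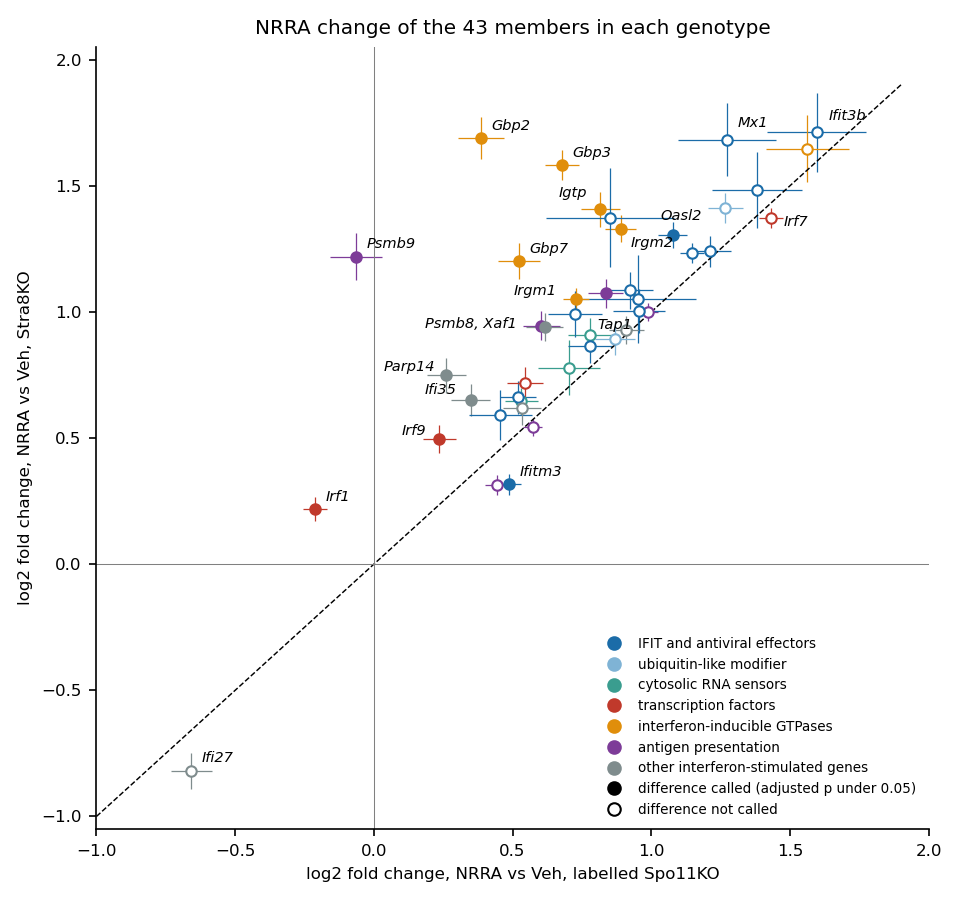
NRRA change of each member in cultures labelled Spo11KO (horizontal axis) and in Stra8KO (vertical axis), as log2 fold changes with SE bars, coloured by role. The dashed line marks equal change. Gbp2 and Psmb9 lie farthest above it, and Irf1 rose in Stra8KO and fell in cultures labelled Spo11KO.

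Whether the NRRA change differed between genotypes was tested as an interaction, the log2 change in Stra8KO minus that in cultures labelled Spo11KO. In all 16 members were called, where 24.7% of all tested genes were. For 15 members the change was higher in Stra8KO and for 1, Ifitm3, it was lower, against 14.6% and 10.1% of all tested genes. With total counts as the only scaling the split was 11 higher and 4 lower. The median of the members was 0.14, beside 0.013 over all tested genes. It was 0.048 with total counts as the only scaling, which shifted the median of all tested genes by -0.093, and 0.076 to 0.26 with 1 library left out. Among the called members 6 of the 7 GTPases, 3 of the 6 antigen presentation genes, 2 of the 4 transcription factors, 3 of the 6 other genes and 1 of the 15 antiviral effectors were higher in Stra8KO. The interaction was 1.30 (log2, SE 0.12, edgeR adjusted p 4.56e-07) for Gbp2, 1.28 (log2, SE 0.13, edgeR adjusted p 3.36e-10) for Psmb9 and 0.90 (log2, SE 0.086, edgeR adjusted p 1.11e-10) for Gbp3. It was 0.68 for Gbp7, 0.59 for Igtp, 0.44 for Irgm2 and 0.32 for Irgm1. It was 0.43 (log2, SE 0.063, edgeR adjusted p 8.14e-07) for Irf1 and 0.34 for Psmb8. These 9 interactions kept their calls under all 15 other settings fitted, while those of Parp14, Xaf1, Ifi35, Irf9, Tap1, Oasl2 and Ifitm3 were lost under at least 1. The other 27 members lay between -0.16 (Ifi27) and 0.52 (Rsad2) without a call. For Isg15 the interaction was 0.14 (SE 0.088, edgeR adjusted p 0.268), for Irf7 -0.057 (SE 0.058, edgeR adjusted p 0.542) and for H2-K1 0.011 (SE 0.051, edgeR adjusted p 0.909).

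The members with a core were set beside those without one. Of the 18 members with an ISRE core, 6 had an interaction called higher in Stra8KO and 1 called lower, and of the 15 without, 8 were called higher. Of all tested genes 14.6% were called higher and 10.1% lower. Of the 10 members with a GAS core, 6 were called higher and 1 lower, and of the 23 without, 8 were called higher. Median interactions were 0.14 with and 0.24 without an ISRE core, and 0.32 with and 0.14 without a GAS core.

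**Figure D3:**
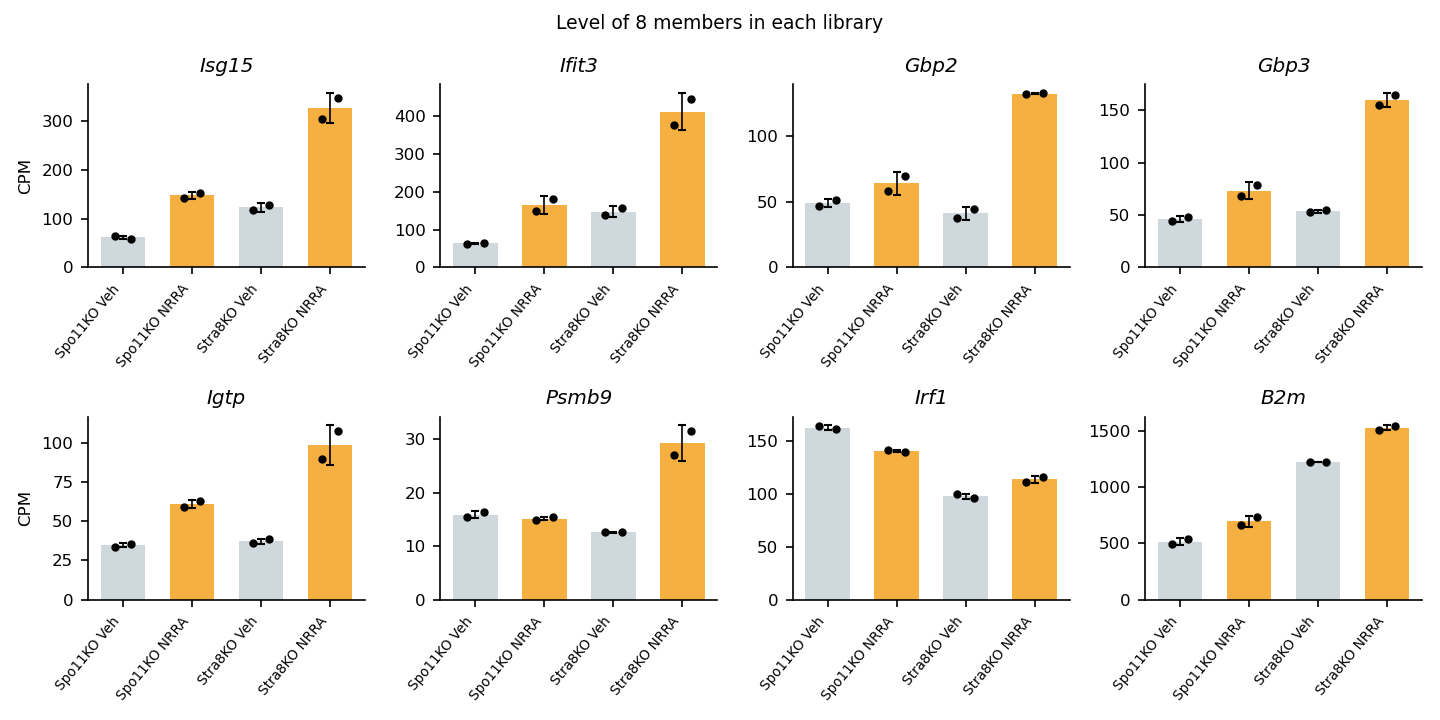
CPM (vertical axis) of 8 members in the 4 groups. Bars are means of 2 libraries, error bars are SDs and points are libraries. Stra8KO NRRA is highest for each gene but Irf1, which is highest in the Veh cultures labelled Spo11KO.

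The genotypes were then compared in each medium. In Veh, 39 members were higher and 3 lower in Stra8KO than in cultures labelled Spo11KO, and Igtp was not called, at 0.098 (log2, SE 0.077, edgeR adjusted p 0.276). Of all tested genes 62.1% were called, 31.5% higher and 30.7% lower. The libraries of the genotypes did not overlap for 43 members, where 39.9% of tested genes lay wholly higher and 39.7% wholly lower. At least 2-fold differences numbered 15, against 9.27% of tested genes. The median of the members was 0.92 (1.89-fold), beside 0.0017 over all tested genes. The 3 lower members were Irf1 at -0.73 (log2, SE 0.045, edgeR adjusted p 8.03e-18), Psmb9 at -0.33 (log2, SE 0.10, edgeR adjusted p 0.00474) and Gbp2 at -0.26 (log2, SE 0.091, edgeR adjusted p 0.0233). The call of Gbp2 was lost without Stra8KO Veh replicate 1, at -0.13, or without Veh replicate 2 labelled Spo11KO, at -0.19, and also without either Stra8KO NRRA library, at -0.26 each, with DESeq2 and with no filter beyond 1 count. Gbp3, at 0.22, lost its call without Stra8KO Veh replicate 2, at 0.19, or without Veh replicate 1 labelled Spo11KO, at 0.15, and Gbp7, at 0.28, lost it without Stra8KO Veh replicate 2, at 0.18. The largest differences were those of Ifitm3 (1.40), Oas2 (1.37), Ifi44 (1.29), Irf7 (1.28) and B2m (1.26). The 15 antiviral effectors and all 6 of the other interferon-stimulated genes were called higher in Stra8KO. Of these calls, that of Rsad2 was lost without any of the 4 libraries labelled Spo11KO, at 0.80 to 0.93, that of Mx1 without Stra8KO Veh replicate 1, at 0.61, or Veh replicate 2 labelled Spo11KO, at 0.52, and that of Parp14 without Veh replicate 2 labelled Spo11KO, at 0.22.

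After NRRA, 42 members were higher in Stra8KO and Irf1 was lower, at -0.30 (log2, SE 0.044, edgeR adjusted p 1.29e-07). Of all tested genes 64.3% were called, 35.2% higher and 29.1% lower. The genotypes did not overlap for 43 members, against 43.8% of tested genes wholly higher and 37.1% wholly lower. The median was 1.10 (2.14-fold), beside 0.066 over all tested genes, and 31 members were at least 2-fold higher, against 11% of all tested genes. Oas2 differed most, by 1.40 (log2, SE 0.059, edgeR adjusted p 4.77e-23), followed by Rsad2 (1.38), Ifit3 (1.32), Ifi44 (1.31) and Xaf1 (1.30). Among the GTPases the median went from 0.28 in Veh to 1.05 after NRRA, and Gbp2 went from -0.26 to 1.05. The 2 media used different libraries of each genotype.

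Markers of fibroblasts moved with the members. All 16 fibroblast markers were higher in Stra8KO than in cultures labelled Spo11KO in Veh and all 16 after NRRA, with medians of 0.94 and 0.97 (log2). All 10 pan-germ markers were lower in Stra8KO in both media, with medians of -1.0 and -0.98. Of all tested genes 31.5% were called higher in Stra8KO and 30.7% lower in Veh, and 35.2% and 29.1% after NRRA. In Veh 32 members lay within the range of the fibroblast markers (0.48 to 1.55), 11 lay below it and none above it. Those below were Gbp2, Gbp3, Gbp7, Igtp, Irf1, Irf9, Irgm2, Oas1a, Oasl1, Parp14 and Psmb9. After NRRA 24 members lay above the range of these markers (0.78 to 1.08), 10 within it and 9 below it. The part of the fibroblasts in the genotype differences of the members was not tested.

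The fibroblast markers moved with NRRA as well. Of all tested genes 21.4% rose and 20.1% fell in Stra8KO, and 24.7% rose and 25.5% fell in cultures labelled Spo11KO. Among the 16 fibroblast markers 11 rose and 4 fell in Stra8KO. In cultures labelled Spo11KO 12 of them rose and 4 fell, with medians of 0.72 in each genotype. Their summed share of the counts was 1.41% to 1.42% in Veh libraries labelled Spo11KO, 2.41% to 2.52% in NRRA libraries labelled Spo11KO, 2.46% to 2.53% in Stra8KO Veh and 4.13% to 4.18% in Stra8KO NRRA. For every 100 counts of the fibroblast markers, the members had 23.2 to 23.3 counts, 21.8 to 24.3 counts, 23.6 to 23.7 counts and 23.98 to 26.1 counts in these groups. Summed over all members, this ratio thus ran from 21.8 to 26.1 over the 8 libraries. The members' share of the counts ran from 0.328% to 1.08%. Both sums are weighted towards abundant genes, so the ratio need not hold for single genes. B2m, H2-K1 and H2-D1 held 33.2% to 42.9% of the members' counts. Fn1 and Col1a1, the markers with the most counts, moved oppositely with NRRA in both genotypes. In Stra8KO Col1a1 went from 4091.71 and 4188.32 CPM in Veh to 11370.5 and 11462.7 CPM in NRRA. Fn1 went from 10457.5 and 10579.8 CPM to 7843.86 and 7875.85 CPM there. By role the ratio was not constant. The GTPases had 2.31 to 2.33, 2.26 to 2.67, 1.66 to 1.75 and 2.52 to 2.73 counts per 100, and the IFIT and other antiviral effectors 5.22 to 5.44, 5.89 to 6.64, 5.90 to 6.02 and 6.72 to 7.57, in the same order of groups. The antigen presentation genes had 8.66 to 9.07, 7.97 to 8.601, 10.2 to 10.6 and 9.01 to 9.50. Of the 10 pan-germ markers, 7 rose with NRRA in each genotype, and 2 fell in cultures labelled Spo11KO. Their median changes were 0.25 in Stra8KO and 0.17 in cultures labelled Spo11KO (log2). The summed share of the pan-germ markers was 0.171% to 0.175%, 0.217% to 0.222%, 0.0771% to 0.0774% and 0.0912% to 0.0960% in the same order of groups. The part of the fibroblasts in the NRRA changes was not tested either.

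**Figure D4:**
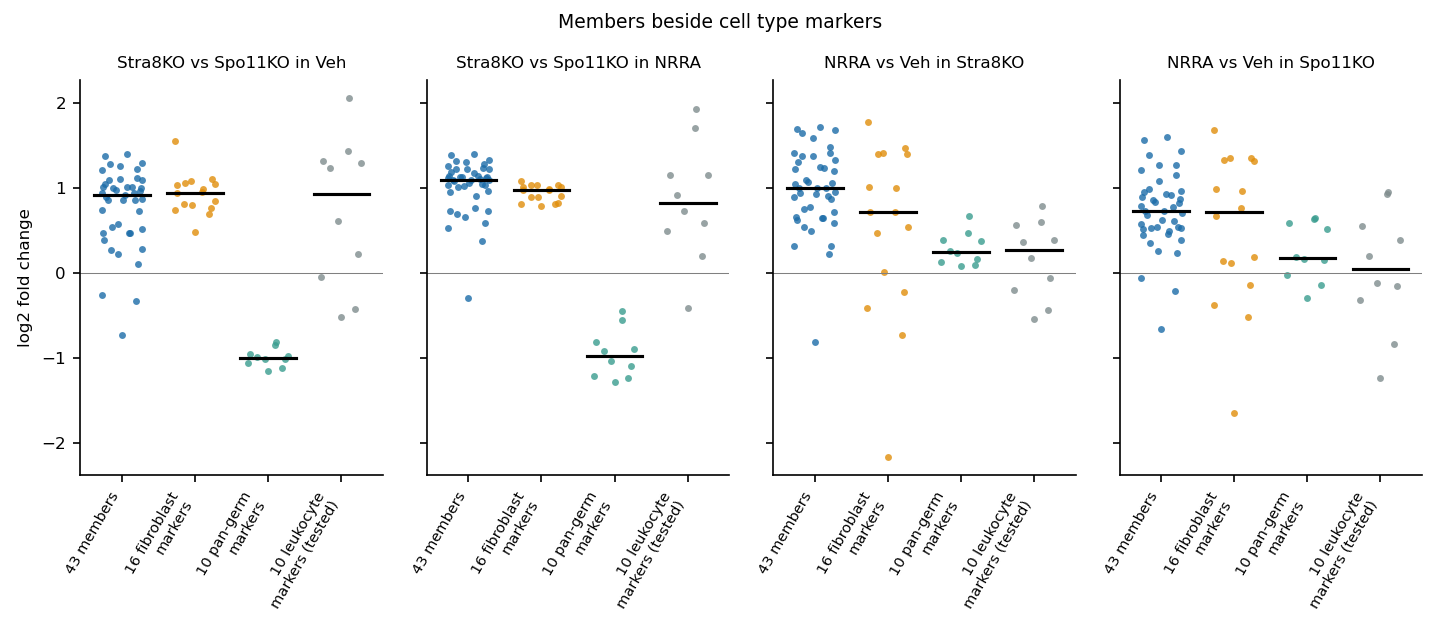
Log2 fold changes (vertical axis) of the members and of marker lists in 4 comparisons. Each point is a gene and each bar a median. In the genotype comparisons the medians in Veh and after NRRA were 0.92 and 1.10 for the members. They were 0.94 and 0.97 for fibroblast markers and 0.92 and 0.82 for leukocyte markers, and pan-germ markers lay below 0. Single members spread more widely. In Veh 32 lay within the range of the fibroblast markers and 11 below it, and after NRRA 24 lay above it, 10 within it and 9 below it.

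Markers of leukocytes, which respond strongly to interferon, were also examined. The most abundant of the 15 macrophage and leukocyte markers were Csf1r, with 295 to 408 counts in a library, Cd68, with 74 to 211, and Cd14, with 66 to 175. The pan-leukocyte gene Ptprc had 6 to 22 counts, the macrophage gene Adgre1 41 to 149 and the T cell gene Cd3e 21 to 66. Of the 15 markers 10 were tested. With NRRA 1 of them was called in Stra8KO, lower, where 41.5% of all tested genes were called. In cultures labelled Spo11KO 1 was higher and 3 were lower, where 50.3% of all tested genes were called. The medians were 0.27 and 0.040. In Stra8KO against cultures labelled Spo11KO, 3 of the 10 were higher in Veh and 6 after NRRA. Of all tested genes 31.5% and 35.2% were higher in these comparisons. The medians of the leukocyte markers were 0.92 and 0.82 (log2), beside 0.92 and 1.10 for the members. The summed share of the leukocyte markers lay between 0.00299% and 0.00419% of the counts in every library. The part of leukocytes in the genotype differences was not tested.

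The rest of the pathway was examined for ligands, receptors and signalling. Of 10 interferon ligand genes 6 had a count in any library and none passed the filter. Ifnb1, the gene of interferon beta, had 6 and 1 counts in the libraries labelled Spo11KO in Veh, 0 and 1 in those labelled Spo11KO after NRRA, 2 and 0 in Stra8KO Veh and 1 and 1 in Stra8KO NRRA. At this depth no difference in a ligand gene was detectable. Among 16 receptor and JAK-STAT genes, 9 rose and 3 fell with NRRA in each genotype. Of all tested genes 21.4% rose and 20.1% fell in Stra8KO, and 24.7% rose and 25.5% fell in cultures labelled Spo11KO. Irf8 rose by 1.95 in Stra8KO and 0.35 in cultures labelled Spo11KO (log2), with an interaction of 1.6 (log2, SE 0.16, edgeR adjusted p 1.87e-10). Ifngr1, a chain of the interferon gamma receptor, rose by 1.58 and 0.77, with an interaction of 0.82. The other chain, Ifngr2, fell by 0.28 in Stra8KO and was not called in cultures labelled Spo11KO, at -0.040. Its interaction was called at -0.24. Of the type I receptor chains, Ifnar2 rose by 1.18 and 0.65, and Ifnar1 rose by 0.13 in Stra8KO and fell by 0.13 in cultures labelled Spo11KO. Socs3, an inhibitor of JAK signalling, fell by 0.77 and 1.77.

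Other interferon-stimulated genes outside the members, 49 in number, mostly rose. All 49 rose in Stra8KO, where 21.4% of all tested genes rose. In cultures labelled Spo11KO, where 24.7% of all tested genes rose, 41 rose, 7 were not called and Ifitm1 fell by 1.38. The medians were 0.86 and 0.64 (log2). Tgtp1 and Tgtp2, T cell specific GTPase genes of the IRG family, rose by 4.01 and 3.34 in Stra8KO and by 2.57 and 3.42 in cultures labelled Spo11KO, and as near-identical copies their separate levels are uncertain. The interaction was called higher for 13 of the 49 genes and not called for 36. Of all tested genes 14.6% were called higher. GTPase genes among the 49 included Ifi47, called at 1.19. Uncalled interactions were those of Gbp4 (0.39), Gbp5 (-0.17), Gbp6 (0.15), Gbp8 (1.15), Gbp9 (0.19), Tgtp1 (1.45) and Tgtp2 (-0.077). Of 16 tested genes of nucleic acid sensing outside the members, 6 rose and 5 fell in Stra8KO, and 2 rose and 9 fell in cultures labelled Spo11KO. Among all tested genes 21.4% rose and 20.1% fell in Stra8KO, and 24.7% rose and 25.5% fell in cultures labelled Spo11KO. Samhd1, which depletes nucleotides, rose by 0.41 in Stra8KO and fell by 1.12 in cultures labelled Spo11KO, with an interaction of 1.53 (log2, SE 0.066, edgeR adjusted p 8.47e-22).

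Of 21 further antigen presentation genes, 17 rose and 3 fell with NRRA in Stra8KO, and 10 rose and 5 fell in cultures labelled Spo11KO. The shares of all tested genes were 21.4% higher and 20.1% lower in Stra8KO, and 24.7% and 25.5% in cultures labelled Spo11KO. Psmb10, the remaining catalytic subunit of the immunoproteasome, had 1227 and 1129 counts in the libraries labelled Spo11KO in Veh, 994 and 1203 in those labelled Spo11KO after NRRA, 917 and 762 in Stra8KO Veh and 1526 and 1698 in Stra8KO NRRA. It rose by 0.94 (log2, SE 0.061, edgeR adjusted p 1.06e-16) in Stra8KO and fell by 0.34 (log2, SE 0.061, edgeR adjusted p 7.92e-06) in cultures labelled Spo11KO, with an interaction of 1.28 (log2, SE 0.087, edgeR adjusted p 1.88e-15). Tap2, the partner of TAP1, rose by 0.46 and 0.29. Nlrc5, the transactivator of MHC class I genes, fell by 0.61 in Stra8KO and 0.61 in cultures labelled Spo11KO, while H2-K1 and B2m rose. Of the 7 MHC class II genes none was called with NRRA in Stra8KO, where the median was 0.27. In cultures labelled Spo11KO 1 rose and 1 fell, with a median of -0.24. Together these 7 genes had only 551 to 780 counts in a library.

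The inducible subunits were then set against the constitutive ones they replace. Psmb5, Psmb6 and Psmb7 all fell in cultures labelled Spo11KO, by 0.32, 0.34 and 0.48. In Stra8KO Psmb5 and Psmb7 fell by 0.39 and 0.33 and Psmb6 rose by 0.11. The ratio of Psmb8 to Psmb5 counts was 0.324 and 0.339 in Veh libraries labelled Spo11KO, 0.607 and 0.649 in NRRA libraries labelled Spo11KO, 0.713 and 0.718 in Stra8KO Veh and 1.89 and 1.72 in Stra8KO NRRA. Every NRRA library exceeded the Veh libraries of its genotype. The ratio of Psmb9 to Psmb6 was 0.0987 and 0.104, 0.121 and 0.124, 0.0919 and 0.0911, and 0.187 and 0.209 in the same order. The ratio of Psmb10 to Psmb7 was 0.444 and 0.408, 0.443 and 0.495, 0.393 and 0.365, and 0.887 and 0.936. For Psmb10 the groups labelled Spo11KO overlapped between media, and in all 3 ratios Stra8KO NRRA stood highest.

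**Figure D5:**
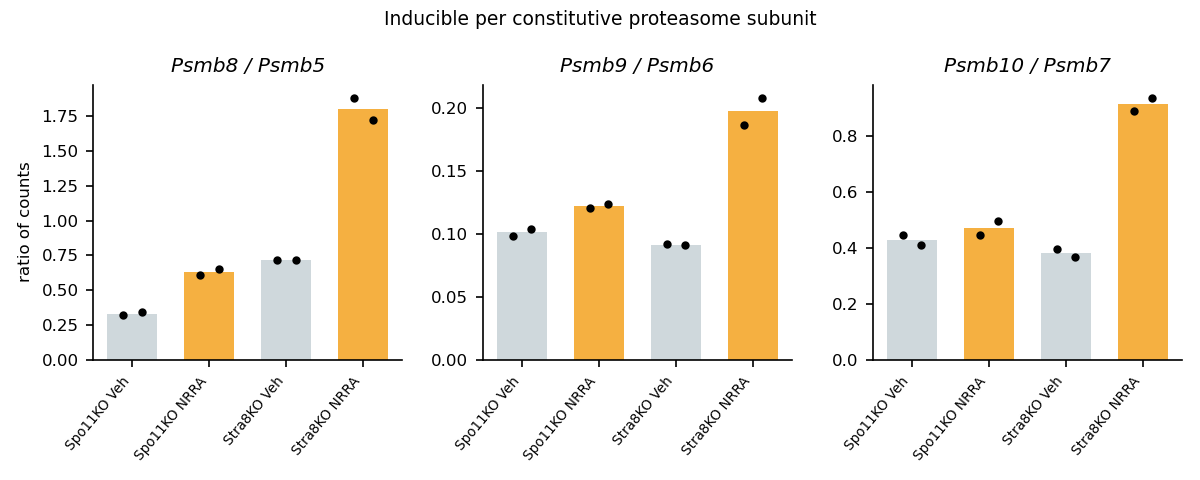
Ratio of counts of each inducible proteasome subunit to its constitutive counterpart (vertical axis) in the 4 groups. Bars are means of 2 libraries and points are libraries. Stra8KO NRRA is highest in each panel, at 1.72 to 1.89 for Psmb8 to Psmb5.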

How the data were processed

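RNA of 8 spermatogonial culture libraries was sequenced, and the authors deposited a table of raw read counts per gene. The submitters' processing notes name bcl2fastq, STAR 2.6.1c, featureCounts 1.6.4 and the mm10 build. The strand setting, the treatment of reads with several matches and the annotation release were not given in the sources used here, and the labels name more than 1 library kit. Samples were grouped by the GEO labels as Stra8KO or Spo11KO in Veh or NRRA, 2 libraries each.

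The filterByExpr function (minimum count 10) of edgeR 4.0.16 (R 4.3.3) left 20588 genes for testing. After TMM scaling, group means over all 8 libraries were fitted, and two-sided robust quasi-likelihood tests were adjusted by Benjamini-Hochberg over those genes. SE was derived from the fold change and its F statistic. In all 5 contrasts were fitted: NRRA against Veh in each genotype, the genotypes in each medium, and the interaction. DESeq2 1.42.0 (Wald test), other scalings and filters, a replicate block and leaving out each library were alternatives. The fit was tested on simulated counts of 19936 genes in the contrast NRRA against Veh in Stra8KO. There it recovered 62.5% of 96 changes of 0.5 and 82.7% of 98 changes of 1 (log2). The simulation gave every gene the same spread and changed only a small part of the genes, so these rates need not hold for the real libraries. Replicate numbers were not treated as pairing the samples.

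The members and lists were chosen with earlier results of these data known, so no p-value is given for a list. All 43 members could be named, with emphasis on the largest changes in each role. From other lists, the 3 called genes with the largest and smallest changes were eligible, together with a short list of pathway genes. Coordinates and exon lengths were taken from GENCODE M21 (GRCm38), not from the deposited table, and promoter windows from RefSeq. The depth was 20960794 to 27038868 counts per library, and counts of a few reads give only coarse values.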

Additional observations from a re-analysis of the deposited data

Results flagged for a closer look

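The NRRA change differed between Stra8KO and cultures labelled Spo11KO, by an interaction called at an edgeR quasi-likelihood adjusted p under 0.05, for 16 members. Among the GTPases the log2 change in Stra8KO exceeded that in cultures labelled Spo11KO by 1.304 for Gbp2, 0.9039 for Gbp3, 0.678 for Gbp7, 0.5907 for Igtp, 0.4403 for Irgm2 and 0.3207 for Irgm1. Among the antigen presentation genes it was larger by 1.283 for Psmb9, 0.3406 for Psmb8 and 0.2382 for Tap1. The transcription factors Irf1 and Irf9 differed by 0.4313 and 0.2595. Parp14, Xaf1 and Ifi35 differed by 0.4881, 0.3242 and 0.3003, and Oasl2 by 0.2277. For Ifitm3 the difference was -0.1718, a smaller rise in Stra8KO. Of all tested genes 24.7% had such a call. Over the 15 other settings the values ran from 1.174 to 1.453 for Gbp2 and from 1.16 to 1.392 for Psmb9, all called. Calls were kept in 13 of the 15 settings for Parp14, 14 for Xaf1, 8 for Ifi35, 9 for Irf9, 6 for Tap1, 6 for Oasl2 and 10 for Ifitm3, with single libraries among the settings that ended the calls of each of these but Xaf1. Leaving out 1 library moved 3 of these values by over 1.5 times, Tap1 to 0.16 without Stra8KO Veh replicate 1, Oasl2 to 0.13 without NRRA replicate 1 labelled Spo11KO, and Ifitm3 to -0.11 without Veh replicate 2 labelled Spo11KO.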

How the results depend on the processing

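Under every alternative run, the number of members called stayed within 1.5 times the reported number in all 5 contrasts. Leaving out each library in turn gave 43 members called with NRRA in Stra8KO, 39 to 42 with NRRA in cultures labelled Spo11KO, 38 to 41 between genotypes in Veh, 43 between genotypes after NRRA, and 12 to 20 for the interaction. The medians of the members then ran from 0.9303 to 1.063, 0.6408 to 0.8169, 0.87 to 0.9632, 1.017 to 1.179 and 0.07556 to 0.2552 in that order. With total counts as the only scaling, the median was 0.8206 for NRRA in cultures labelled Spo11KO, 0.8032 between genotypes in Veh 0.8901 between genotypes after NRRA and 0.048 for the interaction. That scaling shifted the median of all tested genes by 0.092, -0.11, -0.21 and -0.093 in these contrasts. It turned the uncalled values of Psmb9 with NRRA in cultures labelled Spo11KO, to 0.02767, and of Igtp between genotypes in Veh, to -0.01618.

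The replicate numbers correlated at -0.051 to 0.10 between groups, so no strong shared effect was seen. With 2 libraries a group, this cannot exclude that libraries of the same number shared a culture. With the replicate block 43, 41, 41, 43 and 17 members were called in the order above. DESeq2 called 43, 42, 41, 43 and 11.

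Of 688 single-gene values in each of the first 4 contrasts, calls were lost in 1 with NRRA in Stra8KO (Rsad2), in 12 with NRRA in cultures labelled Spo11KO (Rsad2, Parp14, Ifit2, Cmpk2), in 23 between genotypes in Veh (Gbp2, Gbp3, Gbp7, Mx1, Rsad2, Parp14, Ifih1) and in 1 after NRRA (Ifi27). The causes were not tested. With 2 libraries a group, a library left out leaves a lone one that is assumed to vary like the other groups.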
